A study of Mus musculus with 9 samples.

Results

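Genes of the acute-phase, antimicrobial and complement response, 10 in all, were followed in MyC-CaP cells given recombinant mouse asporin (ASPN). They comprised the serum amyloid A genes Saa3, Saa1 and Saa2, the lipocalin Lcn2, the complement genes C3 and Cfb, the metabolic enzymes Nos2 and Acod1, and the calgranulins S100a8 and S100a9. The genes were chosen by measured counts in these same libraries, so their levels and differences are given as description, without a p-value. Of the 10 genes, 9 were rows of the deposited table of 15384 genes, and the expression of S100a9 was not analysed here. ASPN is a small leucine-rich proteoglycan secreted by stromal cells, and the study asked how prostate cancer cells respond to it. MyC-CaP is a single mouse cell line, labelled epithelial-like, that was derived from a prostate cancer of a mouse carrying a human MYC transgene under a prostate-directed probasin promoter. Poly(A) RNA from 3 biological replicates was sequenced at 0hr, 12hr and 24hr, giving 9 libraries. All 3 groups carry the label ASPN-treated, including the one taken at 0hr (hereafter time 0), and all cells had been kept in medium without serum and calcium before 100 ng/mL ASPN was added. No untreated library at 12 or 24 h was used here, so the effect of ASPN and that of the hours elapsed in this medium cannot be told apart. Nothing beyond the words biological replicate and the plating in triplicate wells says how independent the cultures were, so the spread between libraries may be partly technical.

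Acute-phase proteins are secreted when inflammatory cytokines reach a cell, mainly in the liver but also in epithelia, and their genes are classically switched on by NF-κB, C/EBP and STAT3 factors acting at the promoter. Serum amyloid A proteins bind lipid, lipocalin 2 withholds iron from bacteria by binding their siderophores, and C3 and factor B form the convertase of the alternative complement pathway. Nos2 makes nitric oxide, Acod1 makes itaconate, and S100a8 and S100a9 form calprotectin, which withholds zinc and manganese.

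The stretches of promoter below are shown because they hold the only searched motif found before the start of these genes. Promoters of 8 of the 10 genes, all but Nos2 and Cfb, were found in the RefSeq promoter set for GRCm38.p6. In the 250 bases before the start, the C/EBP letters TTGCNNAA were present on 1 strand or the other in 6 of the 8 genes (C3, Lcn2, Saa1, Saa2, Saa3 and S100a9), against 9.56% of 32851 mouse promoters. The NF-κB consensus was found in 0 of 8, against 7.25% of all promoters, and the STAT letters TTCNNNGAA in 0 of 8, against 7.02%. Both strands were read for every motif, and no positions were shared between motifs because only 1 of them was found. A match is a run of letters and not a measured binding site, and no match says only that these letters are not in this window. Each stretch of 60 bases is written 5′ to 3′ on the strand of its gene, with the C/EBP letters in capitals. They lie at chr17:57228148-57228207 for C3, chr2:32387922-32387981 for Lcn2, chr7:46743129-46743188 for Saa1 and chr7:46715742-46715801 for Saa3 (all minus strand), and at chr7:46751624-46751683 for Saa2 (plus strand).
C3: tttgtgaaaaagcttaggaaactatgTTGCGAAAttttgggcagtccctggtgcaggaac
Lcn2: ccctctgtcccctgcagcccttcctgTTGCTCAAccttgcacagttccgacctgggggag
Saa3: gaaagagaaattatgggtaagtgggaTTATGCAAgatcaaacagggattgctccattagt
Saa1: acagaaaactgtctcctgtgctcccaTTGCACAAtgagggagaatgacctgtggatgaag
Saa2: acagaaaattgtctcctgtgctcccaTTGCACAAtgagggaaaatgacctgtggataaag
The match in Saa3 is on the opposite strand and lies at positions -99 to -92 from the start, while that in C3 lies at -45 to -38. The matches in Lcn2 (-216 to -209), Saa1 (-182 to -175) and Saa2 (-183 to -176) are further away. In the GENCODE annotation the stretches of C3, Saa1, Saa2 and Saa3 lie outside the span of their own gene. That of Lcn2, although before the RefSeq start, lies inside the annotated span of Lcn2, with 0 of its 60 bases in an annotated untranslated region. The Saa1 and Saa2 promoters were identical at 238 of 249 aligned bases (95.6%).

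Levels are given as CPM (counts relative to the library total), scaled by trimmed mean of M-values (TMM) factors, and, where genes are compared with each other, as RPKM (CPM divided by exon length). A gene was called when its fold change was at least 1.5 with an adjusted p of 0.05 or less in edgeR's quasi-likelihood test over all genes tested. Lcn2, C3, Saa3 and Nos2 were higher at 12 h than at time 0 and higher again at 24 h, and Lcn2, C3 and Saa3 together held 94.8 to 99.1% of the counts of the 9 genes in every library. At 12 h, 4 of the 9 genes had enough counts to be tested and all 4 were called higher, where 1.5% of the 11410 genes tested were called higher and 0.0964% lower. At 24 h against time 0, 5 were tested and 5 called higher, beside 12% of 11444 genes called higher and 16.8% called lower. Between 12 and 24 h, 6 were tested and 5 called higher, beside 10.4% of 11394 genes called higher and 15.3% lower. No tested member was called lower in any comparison. Since the members were chosen from these contrasts, nothing is read from their counts against these shares. Saa3 and Nos2 at 12 h, and Saa3, Saa2 and Nos2 at 24 h against time 0, and Saa2 between 12 and 24 h, passed the filter on low counts only with the counts of the later time. Fewer expressing cells and less RNA per cell cannot be told apart in these bulk libraries. The plot of member levels by library shows all 9 genes.

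**Figure D1:**
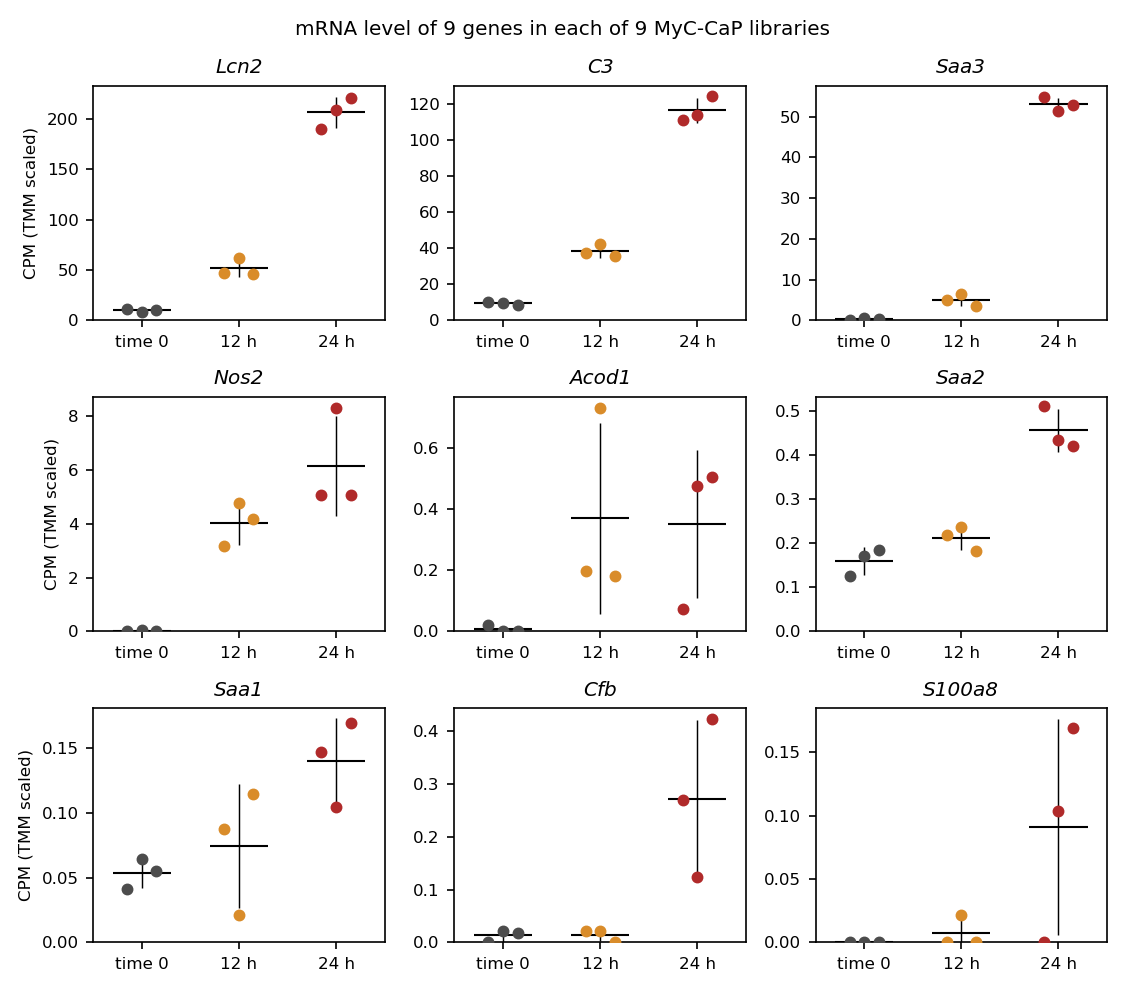
CPM (TMM scaled, linear axis from 0) of 9 genes in each of the 9 libraries; points are libraries in the order of their replicate numbers, horizontal lines are the means and vertical lines the SD (n = 3 per time). Saa3 moves from a mean of 0.342 CPM at time 0 to 53.0 CPM at 24 h, while Acod1 spreads widely at both later times and S100a8 at 24 h overlaps time 0.

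Saa3 (ENSMUSG00000040026.8, chr7:46711998-46715700, minus strand) is a serum amyloid A gene expressed mainly outside the liver in the mouse. Its course was the steepest among the members with more than 3 counts in all at time 0. It had 8, 23 and 20 counts at time 0, 231, 303 and 156 at 12 h, and 2243, 2484 and 2501 at 24 h. These were levels of 0.166, 0.493 and 0.367 CPM, then 5.05, 6.52 and 3.57 CPM, then 54.8, 51.4 and 52.8 CPM. No library of an earlier time reached any library of a later one. The log2 difference was 3.88 (SE 0.28) at 12 h, a 14.7-fold change, and 7.27 (SE 0.14), or 154-fold, at 24 h. Between 12 and 24 h the level was 10.6-fold higher (log2 difference 3.41, SE 0.13). The time 0 value rested on few reads, and without replicate 1 of time 0 the 24 h difference was 6.98, while without replicate 2 it was 7.60.

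Saa1 and Saa2 (chr7:46740497-46742980, minus strand, ENSMUSG00000074115.5, and chr7:46751790-46754313, plus strand, ENSMUSG00000057465.5), the acute-phase serum amyloids that the liver secretes, stayed close to the limit of detection. Saa2 had 6, 8 and 10 counts at time 0, 10, 11 and 8 at 12 h, and 21, 21 and 20 at 24 h, so that all 24 h libraries were above all earlier ones. The Saa2 level was 0.160 ± 0.031 CPM at time 0, 0.213 ± 0.027 at 12 h and 0.457 ± 0.049 at 24 h (SD, n = 3). The Saa2 difference was 1.49 on the log2 scale (SE 0.41) at 24 h against time 0 and 1.11 (SE 0.38) between 12 and 24 h. The latter call of Saa2 was lost without replicate 1 or 3 of 12 h, without replicate 1 of 24 h (log2 differences 1.12, 1.01 and 1.02), with no filter on low counts (1.10) and with scaling by total counts (0.88). Saa1 had 2, 3 and 3 counts at time 0, 4, 1 and 5 at 12 h, and 6, 5 and 8 at 24 h. Too few for the test, the Saa1 counts summed to 8 at time 0 and 19 at 24 h, a ratio after scaling of 2.59 with a 95% interval of 1.08 to 6.85 that covers counting error only. The coding sequences of Saa1 and Saa2 have 369 bases each and are identical at 351 of them (95.1%), and 14.7% of the 50-base windows but 0% of the 75-base windows of Saa1 occur in Saa2, so that shorter aligned stretches could be ambiguous between the 2 genes. The untranslated exon bases were not compared. Saa3 shares 74.7% of aligned coding bases with Saa1 and 73.1% with Saa2, and none of the 75-base windows of Saa1 or Saa2 occurs in Saa3. Of the 50-base windows, 2.81% of those of Saa1 and 0% of those of Saa2 occur in Saa3.

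Lcn2 (ENSMUSG00000026822.14, chr2:32384633-32388252, minus strand), the siderophore-binding lipocalin, was the member with the highest level per length at every time. Its levels were 10.9, 8.62 and 10.1 CPM at time 0, 47.0, 61.8 and 46.2 CPM at 12 h, and 190, 209 and 221 CPM at 24 h, with 402 to 548 counts in the lowest group. The 3 times did not overlap. Lcn2 was 5.25-fold higher at 12 h (log2 difference 2.39, SE 0.10), 21.0-fold higher at 24 h (4.39, SE 0.08), and 4.06-fold higher at 24 h than at 12 h (2.02, SE 0.09). Slc22a17, a proposed receptor for lipocalin 2, had 0 to 12 counts per library and was not tested.

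C3 (ENSMUSG00000024164.15, chr17:57203970-57228136, minus strand), the central complement component, followed the same order. Its levels were 10.1, 9.72 and 8.43 CPM at time 0, 37.5, 42.5 and 35.4 CPM at 12 h, and 111, 114 and 124 CPM at 24 h. C3 was 4.11-fold higher at 12 h (log2 difference 2.04, SE 0.08), 12.5-fold higher at 24 h (3.64, SE 0.07) and 3.08-fold higher at 24 h than at 12 h (1.62, SE 0.06), with no overlap between times. Cfb (ENSMUSG00000090231.10, chr17:34856374-34862518, minus strand), whose product pairs with C3b, had 0, 1 and 1 counts at time 0 and 1, 1 and 0 at 12 h, but 11, 6 and 20 at 24 h. The Cfb sums of 2 counts at time 0 and 37 at 24 h gave a ratio of 20.2 with a 95% counting interval of 5.21 to 173. On the same strand, 79.5% of the exon bases of Cfb overlap another annotated gene, Gm20547, so reads from there could not be assigned to 1 gene and the Cfb counts are uncertain.

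Nos2 (ENSMUSG00000020826.9, chr11:78920787-78960254, plus strand), the inducible nitric oxide synthase, went from the detection limit to several CPM within 12 h. It had 0, 2 and 0 counts at time 0, 145, 222 and 183 at 12 h, and 208, 401 and 241 at 24 h. The 24 h levels of 5.08, 8.30 and 5.09 CPM stood above the 12 h levels of 3.17, 4.78 and 4.18 CPM. With 2 counts in all at time 0, the ratio of summed counts was 302 at 12 h (95% counting interval 83.2 to 2500) and 464 at 24 h (128 to 3840). Both counts came from replicate 2 of time 0. The fitted log2 difference at 12 h was 10.59 without that library and 7.41 without replicate 3 of time 0, and at 24 h it was 11.21 and 8.03, so the size of the change from time 0 rests on those 2 counts. The later step of Nos2 was 1.55-fold (log2 difference 0.63, SE 0.20). Its call was lost without replicate 1 of 12 h (0.48), without replicate 2 of 24 h (0.35) and with scaling by total counts (0.41).

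Acod1 (ENSMUSG00000022126.6, chr14:103046977-103056573, plus strand), which makes itaconate from the Krebs cycle intermediate cis-aconitate, had 1, 0 and 0 counts at time 0, 9, 34 and 8 at 12 h, and 3, 23 and 24 at 24 h. The libraries of 12 and 24 h each exceeded those of time 0 but overlapped each other. Summed Acod1 counts were 1, 51 and 50 at the 3 times, which gave ratios of 56.0 (95% counting interval 9.61 to 2250) at 12 h and 54.6 (9.36 to 2200) at 24 h against time 0. The single count at time 0 was in replicate 1 and 34 of the 51 counts at 12 h were in replicate 2, so the size of these ratios rests on those libraries. Between 12 and 24 h Acod1 was not called, with a log2 difference of -0.02 (SE 0.62) that ran from -0.35 to 0.93 over the alternatives tried. S100a8 (ENSMUSG00000056054.9, chr3:90668978-90670035, plus strand), a subunit of calprotectin, had 0 counts in every library at time 0, 0, 1 and 0 at 12 h, and 0, 5 and 8 at 24 h. Taking 3 counts over the group as the limit that a sum of 0 allows, the 13 counts at 24 h were 4.73 times that limit after scaling, with an exact 95% lower counting limit of 3.33 for the ratio, but replicate 1 of 24 h had 0 counts and overlapped time 0.

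**Figure D2:**
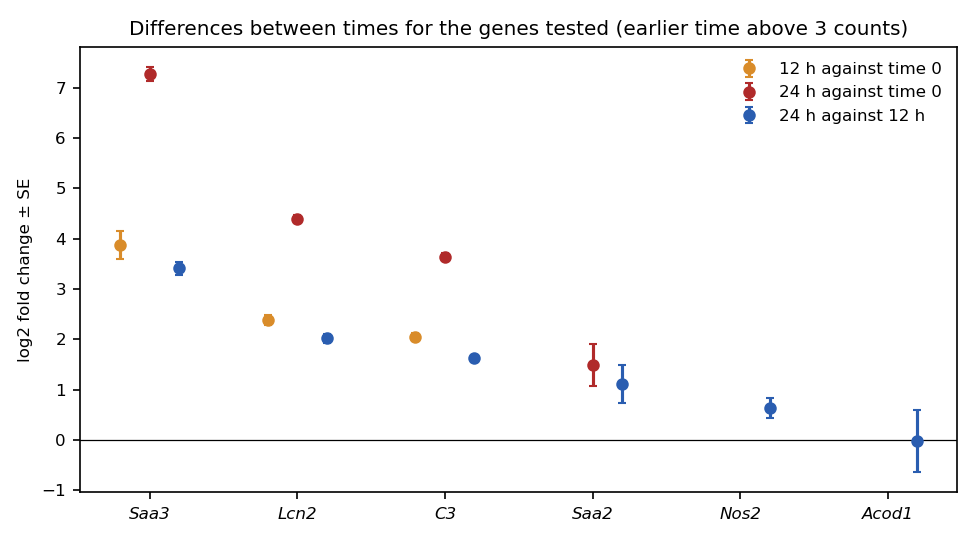
Log2 fold change with its SE (vertical axis) for each tested member whose earlier time held more than 3 counts, one colour per comparison (3 libraries per time). Saa3 lies highest at 7.27 for 24 h against time 0 and its difference between 12 and 24 h (3.41) is close in size to that of the first 12 h (3.88), while Acod1 between 12 and 24 h is centred near 0; the 2 comparisons of Nos2 with time 0 are left out because time 0 held 2 counts.

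Per exon length the order of the members was Lcn2, C3, Saa3 and Nos2 at 12 and 24 h. At time 0 the mean levels were 3.76 ± 0.44 RPKM for Lcn2, 1.83 ± 0.17 for C3 and 0.131 ± 0.063 for Saa3 (SD, n = 3). At 24 h they were 78.8 ± 6.0, 22.7 ± 1.3 and 20.3 ± 0.65 RPKM. C3 and Saa3, an order of magnitude apart at time 0, were neighbours by 24 h: C3 had 21.6, 22.2 and 24.2 RPKM and Saa3 had 21.0, 19.7 and 20.3 RPKM, which did not overlap. Among 15374 genes with an exon length, Lcn2 moved from rank 7060 at time 0 to 2321 at 12 h and 575 at 24 h. Saa3 moved from rank 10983 to 8539 and 2304, C3 from 8623 to 5026 and 2070, and Nos2 from 13650 to 9522 and 8860. These ranks place Lcn2 among the more abundant transcripts of the cells at 24 h and leave Nos2 in the lower part of the table at every time.

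**Figure D3:**
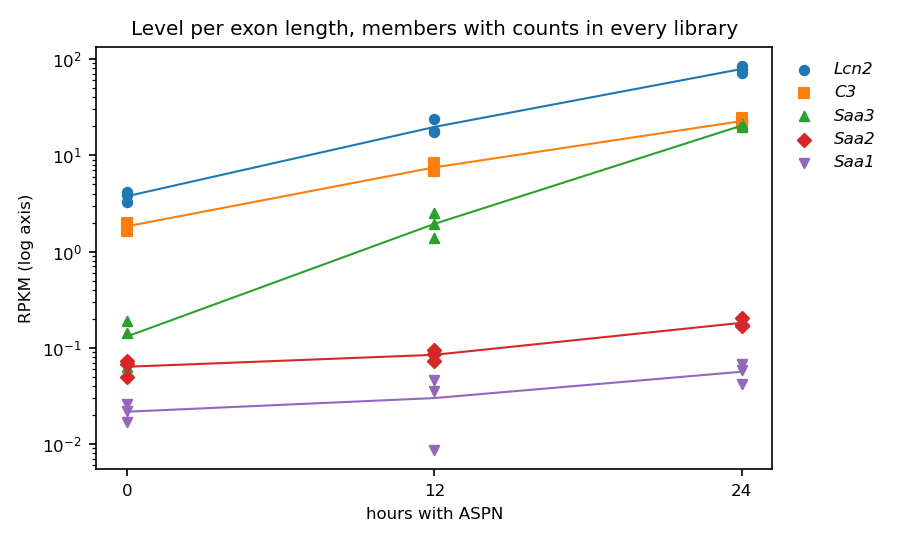
RPKM on a log axis against hours with ASPN for the 5 members with counts in every library; points are libraries and lines join the means of 3 libraries. Lcn2 is highest throughout (78.8 RPKM at 24 h), the Saa3 line climbs from 0.131 RPKM to 20.3 RPKM and comes near that of C3 (22.7 RPKM), and Saa2 and Saa1 stay below 1 RPKM.

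Saa3, Lcn2, C3 and Nos2 varied together across times but not clearly within them. Over the 9 libraries, which share their 3 times, Pearson's r of log2 CPM was 1.00 between Lcn2 and C3, 0.99 between Saa3 and either of these, and 0.91 to 0.92 between Nos2 and the other 3 genes. After the mean of each time was removed, r was 0.61 for Lcn2 and C3, 0.49 for Saa3 and Nos2, -0.10 for Saa3 and Lcn2, 0.08 for Saa3 and C3, -0.15 for Lcn2 and Nos2 and 0.23 for C3 and Nos2. At 12 h, replicate 2 was the highest library for 7 of the 9 genes, and at 24 h replicate 3 was the highest for 6. Of 1268 other genes with a mean of at least 5 CPM and a range of at least 1 log2 unit, those closest in pattern to Saa3 were Bcl10 (r 0.9917 over 9 libraries), Lacc1 (0.9897) and St3gal3 (0.9879). Mpzl1 (0.9978), Bcl10 (0.9964) and Rfk (0.9955) were closest to Lcn2, and Mpzl1 (0.9976), Lacc1 (0.9953) and Bcl10 (0.9949) to C3. Their changes were smaller than those of Saa3, Lcn2 and C3, with Bcl10, an adaptor of NF-κB signalling, at 27.2, 41.0 and 60.1 CPM and Lacc1 at 3.01, 6.32 and 10.4 CPM at the 3 times.

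Other genes of the same pathways were taken from 9 lists of 151 genes, written by known role with earlier results of these data in view. The table held 113 of them, of which 69 were tested at 12 h and 69 at 24 h. At 12 h, 13 of 69 (18.8%) were called higher and 0 lower, beside 1.5% and 0.0964% of all genes tested, with a median log2 difference of 0.07 against 0 over all genes tested. At 24 h, 17 of 69 (24.6%) were called higher and 10 (14.5%) lower, beside 12% and 16.8% of all genes tested, with a median of 0.16 against -0.02. Between 12 and 24 h, 6 of 68 (8.82%) were called higher and 16 (23.5%) lower, beside 10.4% and 15.3% of all genes tested, with a median of 0.03 against 0. Because the lists were written with these data in view, the shares called are description only. The shares also include genes that passed the filter on low counts only through the time at which they stood higher. Tnf, Tlr2 and Pglyrp2, at 3 counts or fewer in all at time 0, passed the filter on low counts only through the later time, so they are described by their counts, without a p-value. The adjusted p-values given for these genes come from the edgeR fit over all genes tested, adjusted by the method of Benjamini and Hochberg.

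Transcription factors of the acute-phase response had the most calls at 12 h, with 5 of 11 tested higher: Nfkbiz, Irf1, Cebpd, Nfkb2 and Relb. Of all genes tested, 1.5% were called higher at 12 h. Nfkbiz, which encodes the nuclear NF-κB cofactor IκBζ, had 17.9, 22.1 and 21.0 CPM at time 0, 194, 209 and 195 CPM at 12 h, and 59.2, 66.6 and 66.2 CPM at 24 h. It was higher at 12 h (log2 difference 3.30, SE 0.06, adjusted p = 1.9e-16) and lower at 24 h than at 12 h (-1.62, SE 0.05, adjusted p = 4.3e-11), while remaining above time 0 (1.66, SE 0.08, adjusted p = 7.4e-10). Irf1, an interferon-responsive factor, also stood highest at 12 h, at 51.7 ± 0.92, 147 ± 2.8 and 53.3 ± 5.0 CPM (SD, n = 3). The Irf1 difference was 1.51 (SE 0.03, adjusted p = 8.1e-15) at 12 h, -1.44 (SE 0.06, adjusted p = 1.6e-10) between 12 and 24 h, and 0.05 (SE 0.06, adjusted p = 0.47) at 24 h against time 0. Saa3, Lcn2 and C3 thus stood highest at 24 h and these 2 factors at 12 h.

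The other 2 factors with values kept most of their 12 h level. Cebpd, which encodes C/EBPδ, was at 23.9 ± 0.29, 58.5 ± 2.8 and 52.7 ± 2.9 CPM, with log2 differences of 1.30 (SE 0.05, adjusted p = 3e-12) at 12 h and 1.15 (SE 0.05, adjusted p = 1.1e-09) at 24 h. Nfkb2, which encodes the p100 precursor of the non-canonical pathway, rose by a log2 difference of 1.21 at both times (SE 0.04 and 0.06, adjusted p = 5.1e-12 and 9.6e-10). Cebpb, whose product is the classical C/EBPβ, was not called at 12 h (0.12, SE 0.04, adjusted p = 0.071) or at 24 h (-0.10, SE 0.09, adjusted p = 0.34). Stat3, the factor downstream of IL-6, had a difference of 0.08 (SE 0.04, adjusted p = 0.26) at 12 h and of -0.33 (SE 0.05, adjusted p = 6.7e-05) at 24 h, less than 1.5-fold at either time. Cebpa, which encodes the C/EBPα of differentiated cells, went the other way, at 271 ± 8.5, 222 ± 6.6 and 95.9 ± 2.2 CPM, and was called lower at 24 h (-1.49, SE 0.04, adjusted p = 1.4e-11).

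**Figure D4:**
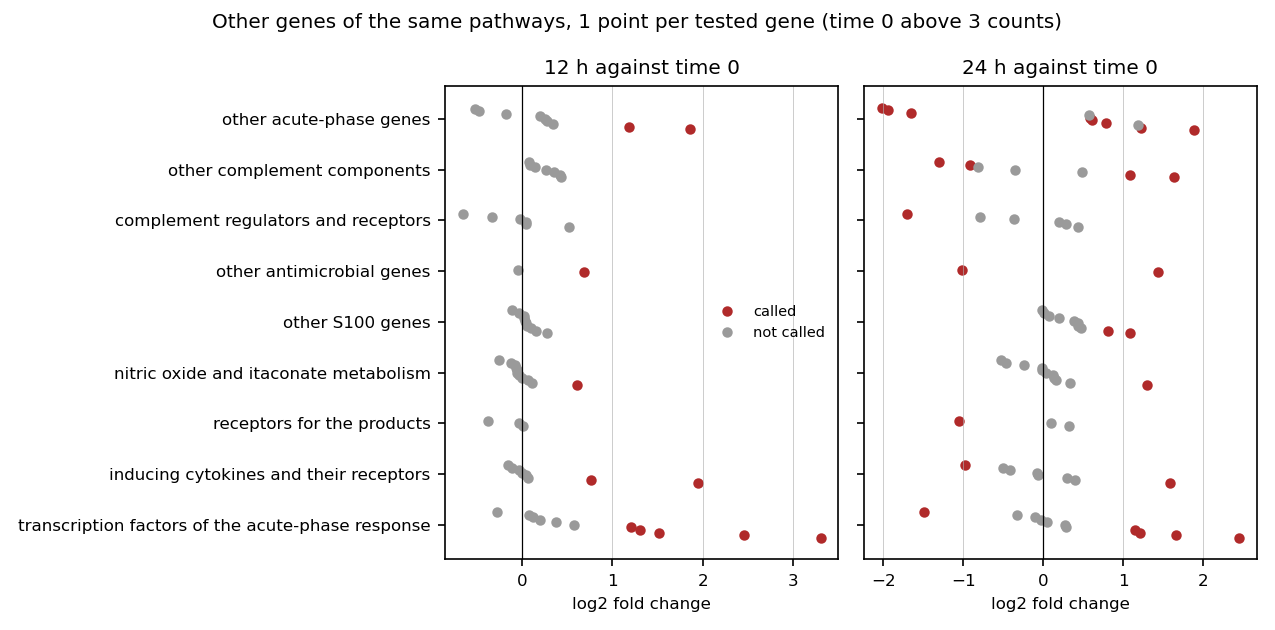
Log2 fold change (horizontal axis) of each tested gene of 9 pathway lists at 12 h (left) and 24 h (right) against time 0, 3 libraries per time; red points were called and grey ones not, and genes with 3 counts or fewer in all at time 0 are not drawn. At 12 h no called gene lies left of 0 and the largest values are in the transcription factor list, led by Nfkbiz at 3.30, whereas at 24 h called genes lie on both sides, such as Cebpa at -1.49 and Slpi at 1.44, including some that passed the filter on low counts only through the time at which they stood higher.

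Among the inducing cytokines and their receptors, 3 of 9 tested genes were called higher at 12 h, beside 1.5% of all genes tested. Lif, an IL-6 family cytokine, rose from 9.59 ± 0.39 CPM to 36.8 ± 2.9 at 12 h and was at 28.8 ± 5.5 at 24 h (log2 differences from time 0 of 1.94, SE 0.07, adjusted p = 1.8e-12, and 1.59, SE 0.11, adjusted p = 3.6e-08). Il6st, the gp130 receptor subunit shared by that family, was higher at 12 h (0.76, SE 0.05, adjusted p = 1.1e-08) but not called at 24 h (-0.08, SE 0.06, adjusted p = 0.25). Il6ra, which encodes the receptor for IL-6 itself, was lower at 24 h (-0.98, SE 0.07, adjusted p = 2.5e-08). Tnf had 0 counts in all libraries at time 0, 55 in all at 12 h and 41 at 24 h, a 12 h sum that was 20.1 times a limit of 3 counts over the time 0 group after scaling and that had an exact 95% lower counting limit of 15.8 for the ratio. Of the receptors for the products, Tlr2, which recognises serum amyloid A and bacterial lipopeptides, had 0, 3 and 0 counts at time 0, 14, 45 and 15 at 12 h, and 10 in all at 24 h, so that replicate 2 held most of the reads at 12 h. Tlr4, the receptor for lipopolysaccharide and calprotectin, was at 37.7 ± 1.7, 37.8 ± 0.70 and 18.1 ± 0.83 CPM and was called lower at 24 h (-1.05, SE 0.06, adjusted p = 5.3e-09).

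The other acute-phase genes moved in both directions. At 12 h, 2 of 9 tested were called higher, beside 1.5% of all genes tested. At 24 h 5 of 10 were called higher (Hp, Cd14, Cp, Lbp and Itih4) and 3 lower (Fgb, Fgg and Lrg1). Of all genes tested, 12% were called higher and 16.8% lower at 24 h. Fgb (28, 40 and 40 counts at time 0, 7, 7 and 10 at 24 h) and Fgg (19, 16 and 17, then 2, 10 and 3) passed the filter on low counts only through time 0. Hp, which encodes the haemoglobin scavenger haptoglobin, had 6.40, 6.20 and 5.89 CPM at time 0, 21.9, 27.5 and 17.6 CPM at 12 h, and 21.1, 24.1 and 22.7 CPM at 24 h. The Hp difference was 1.86 (SE 0.13, adjusted p = 1.7e-08) at 12 h and 1.88 (SE 0.08, adjusted p = 6e-10) at 24 h, and the 12 and 24 h libraries overlapped. Cd14, a co-receptor for lipopolysaccharide, had differences of 1.18 (SE 0.08, adjusted p = 2.5e-08) and 1.22 (SE 0.11, adjusted p = 2.4e-07). Cp, which encodes the copper-carrying ferroxidase ceruloplasmin, was abundant throughout, at 2280 ± 70, 2720 ± 78 and 3420 ± 92 CPM. The Cp difference at 24 h was 0.59 (SE 0.04, adjusted p = 4.8e-08), at the 1.5-fold limit, and its call was lost without replicate 2 of time 0 (0.58), without replicate 3 of 24 h (0.57) and with scaling by total counts (0.37). Lbp, which encodes the lipopolysaccharide binding protein, had a difference of 0.61 (SE 0.04, adjusted p = 3.2e-08), or 0.39 and no call with scaling by total counts.

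Complement genes other than C3 and Cfb were mostly scarce. At 12 h, 0 of 7 tested components and 0 of 6 tested regulators and receptors were called, beside 1.5% of all genes called higher and 0.0964% lower. At 24 h, 2 of 7 tested components were called higher and 2 lower, beside 12% and 16.8% of all genes tested. Those called higher were C1ra (1.08, SE 0.11, adjusted p = 1.1e-06) and C1rb (1.64, SE 0.54), which encode forms of the C1r protease of the classical pathway. C1rb had 2, 6 and 8 counts at time 0 and 16, 11 and 19 at 24 h, and its call was lost without replicate 1 of time 0 (1.30). C8g, for a subunit of the membrane attack complex, was lower (-0.91, SE 0.30, adjusted p = 0.016), and without replicate 2 or 3 of time 0 or replicate 2 of 24 h its adjusted p was 0.053, 0.079 and 0.060. C2, for the protease that pairs with C4b in the classical convertase, had 28, 14 and 26 counts at time 0 and 3, 13 and 9 at 24 h. The C2 difference of -1.30 (SE 0.48) lost its call without replicate 1 or 3 of either time. C4b had 0 to 6 counts per library and was not tested. Vtn, which encodes vitronectin, an inhibitor of the membrane attack complex, had 38, 39 and 46 counts at time 0 and 17, 6 and 11 at 24 h (-1.70, SE 0.38). C1rb, C2 and Vtn passed the filter on low counts only through the time at which they stood higher, so they are given without a p-value.

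Of the other antimicrobial genes, Slpi, for a secreted protease inhibitor of epithelia, rose at both times, from 23.0 ± 2.5 CPM to 36.8 ± 3.4 and 62.1 ± 4.6 CPM (log2 differences 0.68, SE 0.07, adjusted p = 5.7e-06, and 1.44, SE 0.08, adjusted p = 2.4e-09). Pglyrp2, for a peptidoglycan-cleaving amidase, had 0, 2 and 0 counts at time 0 and 14, 11 and 37 at 24 h, most of them in replicate 3. Defb1, the constitutive epithelial defensin, was lower at 24 h (-1.02, SE 0.23, adjusted p = 0.0015). Among 10 other S100 genes tested, 0 were called at 12 h and 2 (20%) were called higher at 24 h, beside 12% of all genes tested, S100a14 (1.08, SE 0.14, adjusted p = 9.4e-06) and S100a3 (0.81, SE 0.11, adjusted p = 1.8e-05).

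In nitric oxide and itaconate metabolism, 1 of 11 tested genes (9.09%) was called higher at each time, beside 1.5% of all genes tested at 12 h and 12% at 24 h. This was Gch1, the rate-limiting enzyme for tetrahydrobiopterin, the cofactor that nitric oxide synthases need. Gch1 was at 3.78 ± 0.18, 5.73 ± 0.14 and 9.26 ± 1.1 CPM, with differences of 0.61 (SE 0.11, adjusted p = 0.00079) at 12 h and 1.30 (SE 0.12, adjusted p = 3.2e-07) at 24 h. Its 12 h call was lost without replicate 1 of time 0 (0.57) and without replicate 3 of 12 h (0.58), both under 1.5-fold. Nos3, the endothelial synthase, had 15 to 29 counts per library and was not called (-0.08, SE 0.33, adjusted p = 0.92 at 12 h, and 0.12, SE 0.36, adjusted p = 0.78 at 24 h). Nos1, the neuronal form, had 2 to 12 counts and was not tested.

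Many of the members are best known from macrophages, neutrophils and hepatocytes, so markers of those cells were read in the same libraries. For macrophages and neutrophils, 8 of 14 markers were in the table, and their summed level was 0.665 to 1.29 CPM at time 0, 0.875 to 1.12 at 12 h and 1.12 to 1.30 at 24 h, with Cd68 at 12 to 37, Itgb2 at 6 to 24, Cybb at 3 to 14, Csf1r at 0 to 4, Spi1 at 0 to 4 and Itgam at 0 to 1 counts per library. For hepatocytes, 5 of 6 markers were in the table, with sums of 0.220 to 0.279, 0.0646 to 0.262 and 0.0977 to 0.317 CPM at the 3 times and Alb at 0 to 3 counts. For fibroblasts, 4 of 8 markers were in the table, at 13 to 14.1, 12.2 to 12.5 and 9.09 to 10.3 CPM in sum, of which Pdgfra made up 8.55 to 13.8 CPM, while Col1a1 had 0 to 8 counts. Of the markers of epithelium, the keratin genes Krt8 and Krt19 were at 24.8 to 42.2 and 79.5 to 145 CPM over the 9 libraries, while the defining adhesion genes Epcam (0 to 1 counts) and Cdh1 (0 to 10) were near 0. Library totals were 41881191 to 52993821 counts, so that 3 counts corresponded to 0.0566 to 0.0716 CPM. The TMM factors ran from 1.04 to 1.07 for time 0, from 1.04 to 1.05 for 12 h and from 0.899 to 0.914 for 24 h, so values at 24 h depend on the scaling more than those at 12 h, and without these factors the median log2 difference of all genes at 24 h against time 0 was -0.24.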

How the data were processed

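The authors deposited 1 table of raw gene counts. Per their methods, paired-end reads were trimmed with Cutadapt, aligned to mouse genome GRCm38.p6 with the GENCODE vM24 annotation by STAR and counted per gene with featureCounts. How multimapping reads and strand were treated is not given in the sources used here. The members and gene lists were chosen with earlier results of these data known. From the counts, edgeR 4.0.16 in R 4.3.3 was used with TMM scaling, filterByExpr and the quasi-likelihood F test on the 6 libraries of each comparison. Genes were called at an adjusted p (Benjamini-Hochberg) of at most 0.05 and a fold change of at least 1.5, the limits used in the study. Alternatives included DESeq2 1.42.0, limma 3.58.1, other scalings and filters, a replicate block and leaving out each library. RPKM used exon lengths of GENCODE vM21 (GRCm38), which held 99.9% of the gene identifiers. Ratios of summed counts carry exact 95% intervals. Intervals and detection limits cover counting error only, since no molecular identifiers were counted. Outside the members, genes were named by a fixed rule: from each list the called genes, up to the 4 of highest mean CPM, and a few regulators and receptors whatever they did. Genes such as Relb, Itih4, Fgb, Fgg and Lrg1, which complete short counts, were named after their values were seen. No 2 libraries of a time agreed within sampling noise (chi-square per degree of freedom 3.41 to 17.5 over 9 pairs). The code was tested on simulated counts. The summed level of the prostate epithelial marker list is not reported here.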

Additional observations from a re-analysis of the deposited data

How the results depend on the processing

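Over the alternatives, 0 of the called differences of members changed sign, while that of Acod1 between 12 and 24 h, which was not called (-0.02), ran from -0.35 without replicate 3 of 24 h to 0.93 without replicate 2 of 12 h. For all members, 207 recomputed values stayed within 1 SD of the replicates and 11 moved further. The number of members called depended on the filter, because several had few counts at time 0. With at least 10 counts required in every library, 2 members were called at 12 h and 2 at 24 h against time 0, and with no filter 8 were called at 24 h, Cfb, Acod1 and S100a8 being added. With total counts and no scaling factor, 3 members were called between 12 and 24 h, and the split of all genes changed to 698 higher and 3008 lower at 24 h against time 0 (main 1374 and 1924) and to 484 higher and 2830 lower between 12 and 24 h (main 1184 and 1740; median -0.22). Leaving out 1 library gave 4 members called at 12 h, 5 to 7 at 24 h against time 0 and 4 to 6 between 12 and 24 h.

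Differences near 0 of pathway genes changed sign. At 12 h against time 0, leaving out 1 library gave -0.07 to 0.35 for C2, -0.25 to 0.17 for Defb1, -0.01 to 0.05 for Tlr4 and -0.30 to 0.09 for Nos3, and Tlr4 was 0 with upper-quartile factors and -0.01 with total counts. At 24 h against time 0, total counts gave -0.17 for Irf1 and -0.10 for Nos3, and leaving out 1 library gave -0.24 to 0.02 for Cebpb and -0.16 to 0.35 for Nos3. Between 12 and 24 h, total counts gave -0.18 for Hp, -0.17 for Cd14 and -0.20 for Nfkb2, and leaving out 1 library gave -0.10 to 0.22, -0.07 to 0.15 and -0.04 to 0.08 for these, and -0.06 to 0.46 for Nos3. The causes were not tested.

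Same-numbered libraries, after the mean of their time was removed, correlated at -0.11 to 0.06 between times, so the numbers did not pair the samples. With a replicate block, 172 genes were called at 12 h, 3247 at 24 h against time 0 and 2926 between 12 and 24 h, with 4, 5 and 5 members and 13, 25 and 21 pathway genes (13, 27 and 22 without the block). Calls lost with it included those of C2 at 24 h against time 0 and Vtn between 12 and 24 h. Members with few counts at time 0 (Saa1, Cfb, Acod1, S100a8) were near the detection limit there, and the counts of Cfb are also uncertain because of its overlap with Gm20547.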
